A study of Mus musculus with 8 samples.

Results

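Deep crypt secretory (DCS) cells of the wild-type distal colon were taken as the cells that the study's authors annotated as epithelium and, one level down, as DCS. The authors gave this name in WT mice only. There were 441 such cells among the 53080 cells of the series, the 13229 epithelial cells of the WT mice and the 6502 WT epithelial cells that carried a cell type name. WT mouse 8 gave 262 of them, and WT mice 1, 4 and 5 gave 61, 63 and 55. The KO-labelled mice (mice 2, 3, 6 and 7) carried Cre under the Villin promoter, which is active throughout the intestinal epithelium, together with a floxed Spry2 gene (Vil1::Cre;Spry2-f/f). The WT mice (1, 4, 5 and 8) were littermates with the floxed gene and no Cre (Spry2-f/f). All mice were 8 weeks old, the distal colonic mucosa was dissociated, and cells that bound annexin V, a label of dying cells, were depleted before droplet capture. Libraries held 17.0 to 37.3 M unique molecular identifiers (UMIs, each standing for 1 captured transcript), and 719 cells, 9 of them DCS, shared a barcode with a cell of another library. DCS cells were set against secretory progenitors (409 cells), stem progenitors (2378 cells) and goblet cells (287 cells) of the same mice, with 1 sum of UMIs per mouse and type. The 5 goblet cells of WT mouse 1 were too few for a sum.

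DCS cells are Reg4-positive secretory cells that lie between the Lgr5-positive stem cells at the base of colonic crypts. They are regarded as the colonic counterpart of small intestinal Paneth cells, because they present Notch ligands and epidermal growth factor to the stem cells beside them. Like goblet cells they arise from progenitors that switch on the transcription factor Atoh1, and they release protective proteins into the crypt lumen. The products taken as their markers here were Retnlb (resistin-like beta, a secreted protein active against bacteria and worms), Ang4 (a microbicidal ribonuclease), Itln1 (a lectin that binds microbial sugars) and Reg4 (a secreted C-type lectin). Not all of them set DCS cells apart from secretory progenitors and goblet cells, as given below. The most abundant product was Mptx1, a mucosal pentraxin of the family of C-reactive protein, followed by Spink4, a small secreted protein of the Kazal inhibitor type, which exceeded Mptx1 in WT mouse 4 only.

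Promoter windows are shown for Mptx1, the leading transcript of the DCS cells, and for the markers Ang4 and Reg4, which ranked the other cell types differently. RefSeq's promoter table (GRCm38.p6) held 4 of the 6 products, Mptx1, Ang4, Reg4 and Itln1, each as 300 bases that run from 250 before to 50 after the gene's start. Capitals mark exact matches, on either strand, to the E-box letters CATCTG or CAGCTG, a form bound by Atoh1-type factors, or to TGTTTAC or TGTTTGC, forms bound by Foxa factors. The Itln1 window held no match and is not printed.
Mptx1, chr1:174330268-174330567, plus strand: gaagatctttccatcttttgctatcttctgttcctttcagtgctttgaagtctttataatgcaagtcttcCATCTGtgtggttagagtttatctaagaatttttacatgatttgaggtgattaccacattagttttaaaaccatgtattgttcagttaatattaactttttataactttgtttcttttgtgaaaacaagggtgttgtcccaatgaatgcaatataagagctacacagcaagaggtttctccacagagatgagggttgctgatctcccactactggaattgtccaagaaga
Ang4, chr14:51773541-51773840, minus strand: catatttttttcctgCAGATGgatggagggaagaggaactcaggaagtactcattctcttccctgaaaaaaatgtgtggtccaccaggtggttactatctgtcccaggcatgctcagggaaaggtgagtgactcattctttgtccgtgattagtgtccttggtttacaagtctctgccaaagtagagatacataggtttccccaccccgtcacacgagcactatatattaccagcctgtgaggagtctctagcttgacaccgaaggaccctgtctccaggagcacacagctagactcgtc
Reg4, chr3:98221906-98222205, plus strand: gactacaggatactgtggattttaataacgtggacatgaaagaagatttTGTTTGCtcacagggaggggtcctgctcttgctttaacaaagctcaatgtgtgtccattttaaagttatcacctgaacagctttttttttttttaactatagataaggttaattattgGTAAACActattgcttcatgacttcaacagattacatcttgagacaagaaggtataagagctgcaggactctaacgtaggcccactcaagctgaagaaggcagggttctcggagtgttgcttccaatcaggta
Mptx1 and Ang4 each held 1 CATCTG match, on the forward and the reverse strand, and Reg4 held a forward TGTTTGC and a reverse TGTTTAC. Among all 32851 windows of the table, 30.6% held either E-box form and 8.48% held either Foxa form, so an E-box match is common, and none of these letters was tested as a binding site.

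The DCS cells stood apart from the other 3 types in depth and in the kinds of RNA they held, which touches every comparison below. Their median was 877, 1015, 1097 and 1402 UMIs per cell in WT mice 1, 4, 5 and 8. Secretory progenitors of the same mice held medians of 4962.5, 5613, 14020.5 and 6380 UMIs, stem progenitors 5375 to 11963, and goblet cells of mice 4, 5 and 8 held 1640, 3207.5 and 4165. DCS cells were lower in every mouse, by a mean of 6.53-fold against secretory progenitors, 7.35-fold against stem progenitors and 2.41-fold against goblet cells. Exact two-sided sign-flip tests over mice gave p = 0.125, 0.125 and 0.25, the smallest p that 4 or 3 mice allow.

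Mitochondrially encoded transcripts were almost lacking from most DCS cells. The median share of UMIs from the 13 mitochondrial genes was 0.375, 0.385, 1.25 and 0.234% in the DCS cells of WT mice 1, 4, 5 and 8, against 10.9 to 19.4% in secretory progenitors, 13.6 to 28.0% in stem progenitors and 11.9 to 31.8% in the goblet cells of mice 4, 5 and 8. The share was under 1% in 331 of 441 DCS cells (75.1%), against 3 of 409 secretory progenitors, 18 of 2378 stem progenitors and 2 of 287 goblet cells. Malat1, an RNA retained in the nucleus, had no UMI in 189 of 441 DCS cells (42.9%), against 2 of 409, 4 of 2378 and 0 of 287 cells of those types. The share was 11.5, 1.59, 32.7 and 62.2% in the DCS cells of WT mice 1, 4, 5 and 8, so it was highest in mouse 8. The depth of a cell bears on that share, and its part in it was not tested. Malat1 as a share of all UMIs is given below. The DCS cells with at least 5% mitochondrial UMIs (17, 10, 10 and 10 cells in WT mice 1, 4, 5 and 8) were therefore also summed alone. What low depth and few mitochondrial transcripts contribute to each result was not tested beyond those sums.

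**Figure D1:**
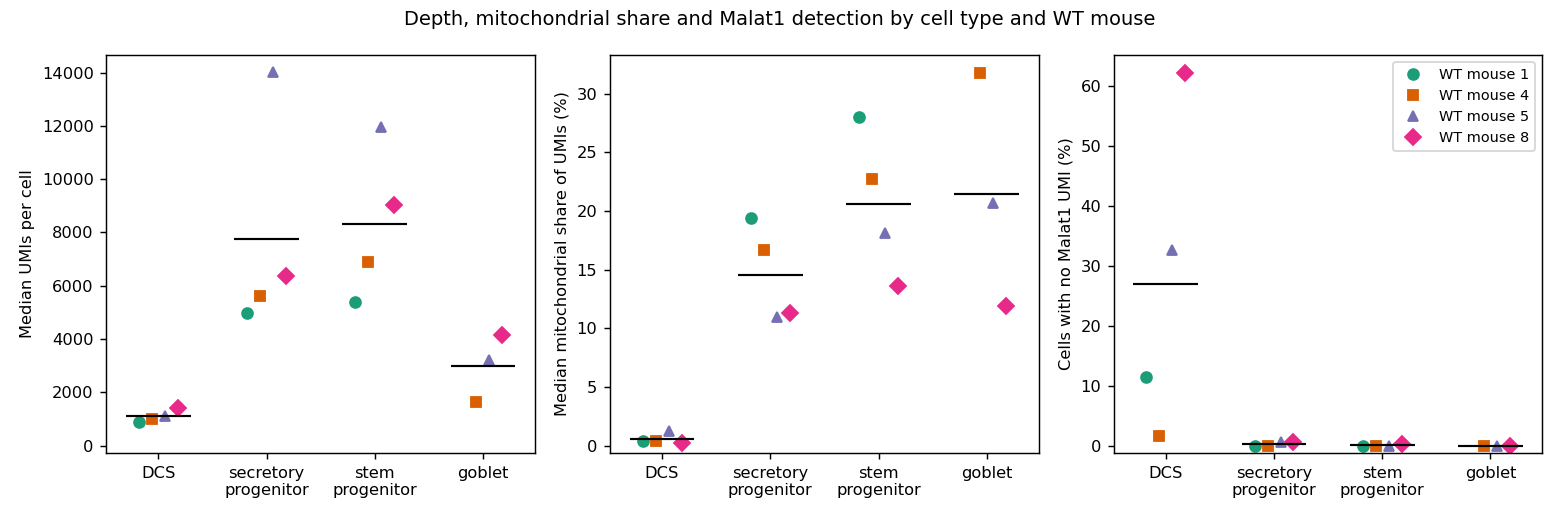
Median UMIs per cell, median mitochondrial share of UMIs and the share of cells with no Malat1 UMI (vertical axes) in 4 cell types (horizontal axes); each point is 1 WT mouse and the bar is the mean over mice, with goblet cells of mouse 1 left out. The DCS medians lie between 877 and 1402 UMIs and between 0.234 and 1.25% mitochondrial UMIs, below every other type in each mouse.

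Most DCS cells carried the same cluster number of the authors. The names may have been given from these clusters, so the overlap describes the labels only. Cluster 18 held 418 of the 441, and 99.5% of the cells in it that carried a name were DCS. It had 688 epithelial cells over all 8 mice, with a median of 1071.5 UMIs and 0.254% mitochondrial UMIs. Cluster 16 held 1215 epithelial cells, 16 of them named, and was the other epithelial cluster with such values (1037 UMIs and 0.265%). Its cells in the WT mice held 455 to 1026 CPM, UMI counts of a gene scaled to a common total for each sum, of Mptx1 and 49.2 to 107 CPM of Retnlb. The DCS cells held 26740 to 148557 CPM of Mptx1 and 1032 to 21065 CPM of Retnlb.

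DCS cells made up 7.49% (exact 95% binomial interval 5.78 to 9.52%), 3.57% (2.75 to 4.54%), 3.38% (2.56 to 4.38%) and 11.4% (10.1 to 12.8%) of the named epithelial cells of WT mice 1, 4, 5 and 8. The mean was 6.47% ± 3.81 (SD, n = 4). The intervals cover counting error only. Among cells under 20% mitochondrial UMIs the mean share was 17.2% ± 7.96 (SD, n = 4). Of all WT epithelial cells, named or not, they were 1.64, 1.49, 2.06 and 10.1%, so mouse 8 was far above the other 3 mice.

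Detection of the 4 markers was counted in single cells, which describes the named cells and is no check of the name. After thinning every cell to 500 UMIs, 43 of 441 DCS cells (9.75%) held all 4, against 5 of 409 secretory progenitors (1.22%), and 49 DCS cells (11.1%) held none, against 104 secretory progenitors (25.4%). Mouse 8 carried these pooled values, with 40 of the 43 cells that held all 4 and none of them in mice 4 and 5. By mouse, the share with no marker was 6.56, 38.1, 27.3 and 2.29% of DCS cells in WT mice 1, 4, 5 and 8, against 13, 30.6, 33.3 and 19.2% of secretory progenitors. It was lower in DCS cells in 3 of 4 mice. Without thinning, all 4 markers were found in 16.4, 0, 0 and 36.3% of DCS cells in these mice, against 17.4, 1.61, 4.00 and 31.1% of the deeper secretory progenitors, higher in DCS cells in mouse 8 only. No marker was found in 94.4% of thinned stem progenitors, 89.9% of goblet cells and 96.1% of 6802 mature B cells, a type that should lack them. The 4 markers thus differed in detection between DCS cells and goblet cells or stem progenitors, and separated single DCS cells poorly from secretory progenitors.

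Retnlb, Ang4 and Itln1 were higher in DCS cells than in secretory progenitors by 1.37 to 1.49 on the log2 scale, while Reg4 was level between them. All 4 were higher than in stem progenitors. In plain CPM, Retnlb stood at 9390, 1032, 9385 and 21065 in the DCS cells of WT mice 1, 4, 5 and 8, against 5290, 1152, 1409 and 9348 in their secretory progenitors. The DCS value was above the progenitor value in 3 of 4 mice, with mouse 4 the exception. Retnlb in goblet cells of mice 4, 5 and 8 was 282, 207 and 1512 CPM, below the DCS value in each mouse. In stem progenitors of mice 1, 4, 5 and 8 it was 155, 15.3, 74.5 and 63.5 CPM.

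The log2 fold changes came from edgeR's quasi-likelihood test with the mouse as a block, fitted over 8273 genes, with p-values adjusted over all of them by the Benjamini-Hochberg method. A gene is called where the adjusted p is under 0.05. Since the authors' names rest on the same transcripts, a call between cell types is no test of the name. A call weighs the mean difference against the spread between mice and can hold where single mice go the other way. Pnliprp2, for instance, was called higher than in secretory progenitors while higher in 2 of 4 mice. The log2 fold change of Retnlb was 1.37 ± 0.37 (SE) against secretory progenitors (edgeR adjusted p = 0.0128), 7.05 ± 0.47 against stem progenitors and 3.41 ± 0.47 against goblet cells. Among all genes, 7.49% were called higher in DCS cells and 8.91% lower against secretory progenitors, 16.8% higher and 22.5% lower against stem progenitors, and 20.3% higher and 24.1% lower against goblet cells. In either direction these were 16.4, 39.3 and 44.4%. The counts called in gene lists below are to be read against these shares. The median log2 fold change of all genes was -0.16 against secretory progenitors, -0.18 against stem progenitors and -0.10 against goblet cells, and the values below are to be read against it.

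Ang4 stood at 6025, 557, 3750 and 9554 CPM in the DCS cells of WT mice 1, 4, 5 and 8, against 3796, 492, 947 and 3134 CPM in their secretory progenitors. DCS cells were higher in all 4 mice, by a log2 of 1.39 ± 0.42 (SE; edgeR adjusted p = 0.0226). Against goblet cells, which held 923, 513 and 3037 CPM in mice 4, 5 and 8, Ang4 was not called (log2 0.75 ± 0.48, edgeR adjusted p = 0.216). Itln1 stood at 231, 0, 87.7 and 603 CPM in DCS cells, against 114, 28.3, 22.3 and 222 CPM in secretory progenitors of mice 1, 4, 5 and 8, and its log2 difference was 1.49 ± 0.41 (SE; edgeR adjusted p = 0.0138). It was the least abundant of the 4 markers, with no UMI in the DCS cells of mouse 4.

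Reg4, the gene by which DCS cells are usually recognised, stood at 8929, 2367, 2818 and 3540 CPM in the DCS cells of WT mice 1, 4, 5 and 8, against 7887, 2524, 3484 and 3273 CPM in secretory progenitors. The ranges overlapped, DCS cells were higher in 2 of 4 mice, and the log2 difference was 0.12 ± 0.32 (SE; edgeR adjusted p = 0.83). Goblet cells of mice 4, 5 and 8 held 0, 11 and 36 CPM, so Reg4 was 7.58 ± 0.59 (SE) higher in DCS cells on the log2 scale. Ang4 was thus not called between DCS cells and goblet cells, and Reg4 not between DCS cells and secretory progenitors. In mature B cells, which lend a measure of free RNA in the droplets, Retnlb was at 20.6 to 59.4, Ang4 at 5.00 to 35.0 and Reg4 at 0 to 33.4 CPM.

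**Figure D2:**
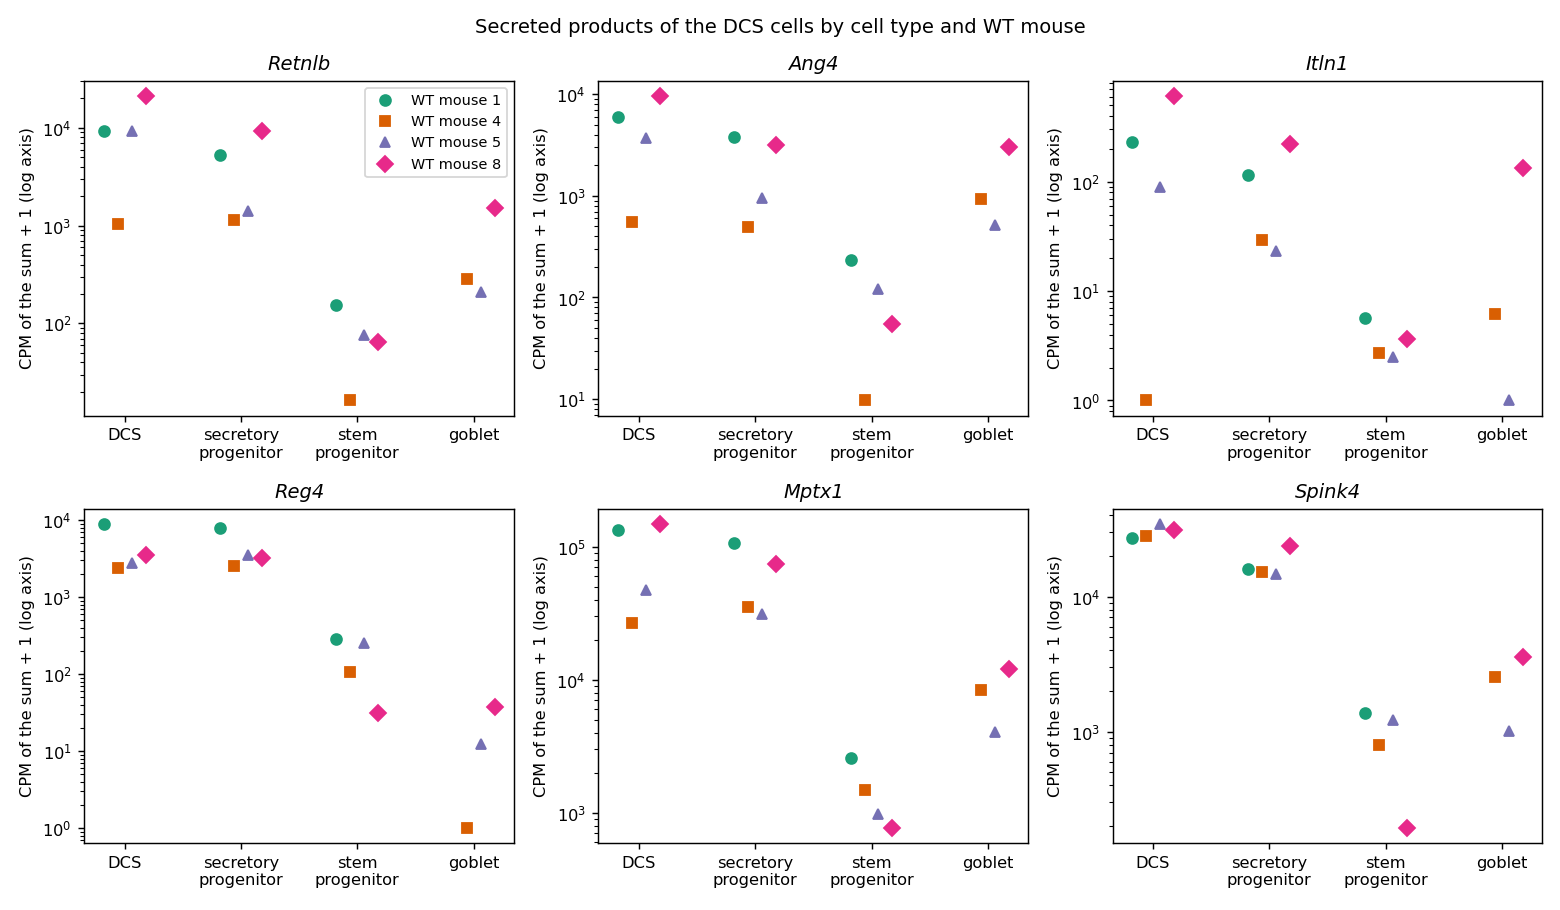
Level of 6 secreted products (plain CPM plus 1, log axes) in DCS cells, secretory progenitors, stem progenitors and goblet cells; each point is 1 WT mouse, and goblet cells of mouse 1 are left out. Reg4 is level between DCS cells (2367 to 8929) and secretory progenitors (2524 to 7887), while goblet cells hold 0 to 36.

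Mptx1 made up 13.4, 2.67, 4.76 and 14.9% of all UMIs in the DCS cells of WT mice 1, 4, 5 and 8. On the library sizes scaled by TMM, a trimmed mean that offsets a few dominant genes, its mean was 95975 CPM in DCS cells, 60383 in secretory progenitors, 1312 in stem progenitors and 10279 in goblet cells. The log2 difference was 0.65 ± 0.32 (SE) against secretory progenitors (not called, edgeR adjusted p = 0.165), 5.97 ± 0.40 against stem progenitors and 2.72 ± 0.39 against goblet cells. Spink4 averaged 30615 CPM in DCS cells, 16465 in secretory progenitors, 801 in stem progenitors and 2969 in goblet cells. It was higher than in secretory progenitors in all 4 mice without being called (log2 0.91 ± 0.34, edgeR adjusted p = 0.0654). Families of close copies, among them the angiogenins, the pentraxins and the ribosomal proteins with their pseudogenes, can share or split reads, so single members of them are less certain.

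The 20 listed secreted defence proteins of the crypt base, Mptx1 and the 4 markers included, together took 19.4, 6.74, 10.5 and 22.2% of the UMIs of DCS cells in WT mice 1, 4, 5 and 8 (14.7% ± 7.31, SD, n = 4). Since the list holds the markers, its share is no check of the name. Secretory progenitors gave 9.86% ± 4.36, stem progenitors 1.56% ± 0.232 (n = 4 each) and goblet cells 3.15% ± 0.803 (n = 3). Without Mptx1 the DCS share was 5.98, 4.07, 5.74 and 7.39% (5.80% ± 1.36), against 3.67% ± 0.920 in secretory progenitors, so most of the spread between mice lay in that gene. Xist, an RNA of the inactive X chromosome in female cells, was at 256, 0, 0 and 370 CPM in these DCS sums. Mice 1 and 8, which held Xist UMIs, thus had the higher list share and the lower ribosomal share given below. The part of sex in these splits was not tested. In the DCS cells with at least 5% mitochondrial UMIs the list took 12.7% ± 6.12, beside 14.7% ± 7.31 in all DCS cells. Within the list, Retnlb and Spink4 were lower in those cells than in DCS cells under 1% in every mouse, as given below.

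Of this list, 14 genes passed the filter on low counts, the markers Retnlb, Ang4, Itln1 and Reg4 among them. Against secretory progenitors 5 were called higher and 1 lower in DCS cells (median log2 0.58), against stem progenitors 9 higher and 5 lower (4.72), and against goblet cells 6 higher and 3 lower (0.67). Retnlb, Ang4 and Itln1 were among the 5 called higher than in secretory progenitors, so these counts partly restate the markers. Clps, which encodes the pancreatic lipase cofactor colipase, averaged 855 CPM in DCS cells and 320 in secretory progenitors (log2 1.41 ± 0.35, SE). Saa1, an acute-phase apolipoprotein induced by microbes, averaged 140 CPM in DCS cells, 28.3 in secretory progenitors and 4998 in goblet cells, and was called higher against the progenitors (2.19 ± 0.50) and lower against goblet cells (-5.29 ± 0.45). Wfdc2, a secreted whey-acidic-domain protein, was called higher than in goblet cells (1.95 ± 0.35) and lower than in stem progenitors (-2.24 ± 0.24). Pigr, the receptor that carries IgA across the epithelium, was called lower than in secretory progenitors (-1.07 ± 0.25) and stem progenitors (-1.03 ± 0.25).

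Most mucus genes were lower in DCS cells than in goblet cells. Of 11 tested mucus components, 10 were called lower and 1 higher against goblet cells (median log2 -2.85), 4 lower and 1 higher against secretory progenitors (0.09), and 2 lower and 9 higher against stem progenitors (4.01). Together they took 4.43% ± 1.44 of DCS UMIs, 4.88% ± 0.726 in secretory progenitors, 0.607% ± 0.0809 in stem progenitors and 19.2% ± 2.11 in goblet cells (SD). Against goblet cells the log2 differences were -2.17 ± 0.43 (SE) for Muc2, the gel-forming mucin, -3.22 ± 0.36 for Fcgbp, which binds to it, -3.77 ± 0.40 for Zg16, a lectin that aggregates bacteria, and -3.72 ± 0.25 for the trefoil peptide Tff3. Agr2, the disulfide isomerase needed to fold Muc2, was the member called higher (1.93 ± 0.30), at 15059 CPM in DCS cells and 4115 CPM in goblet cells. Against secretory progenitors Muc2 was lower (-1.24 ± 0.38, edgeR adjusted p = 0.0246) and Tff3 higher (1.08 ± 0.22).

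Across the 3 comparisons, 380 genes (4.59%) were called higher and 424 (5.13%) called lower in DCS cells against all 3 types. Of the genes called higher that also went the same way in every mouse with at least 50 CPM in DCS cells, 287 remained. Those with the largest minimum difference are named here. Pla2g12a, a secreted phospholipase A2, led them at 80.9, 20.6, 72.9 and 59.2 CPM in WT mice 1, 4, 5 and 8, with log2 differences of 1.87 ± 0.39 (SE) against secretory progenitors, 2.87 ± 0.39 against stem progenitors and 3.38 ± 0.66 against goblet cells. Copz2, a subunit of the COPI vesicle coat, stood at 40.4, 72.0, 167 and 111 CPM in DCS cells, against 17.5, 43.8, 24.2 and 70.5 CPM in secretory progenitors (log2 1.29 ± 0.36, SE). Srp19, a protein of the signal recognition particle that brings secretory proteins to the endoplasmic reticulum, stood at 175, 308, 250 and 327 CPM in DCS cells, against 59.6, 102, 135 and 173 CPM in secretory progenitors. Every DCS sum of Srp19 was above every secretory progenitor sum. The others were Cmtm7, Wfdc17, 1110008P14Rik, Gtf3a, Vbp1, Mrpl17, 2310039H08Rik, Coa4, Eci2, Mrps28, Dnlz and Rnf7, at 1.16 to 1.36 above secretory progenitors on the log2 scale. In the DCS sums of mice 1, 4 and 5, 3 counts were worth 32.9 to 40.7 plain CPM. Values near or below that level rest on few UMIs, among them Pla2g12a in mouse 4, Copz2 in mouse 1 and Mrps28 in mice 1 and 4. With the DCS cells of at least 5% mitochondrial UMIs, 4 of the genes named here fell below 0 against secretory progenitors, Cmtm7 to -0.60, Vbp1 to -0.14, Dnlz to -0.15 and Rnf7 to -0.42. Each of these values still lay above the median of all genes in that setting, which is given with the ribosomal genes below.

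Among the 301 genes that were lower in every mouse against all 3 types with at least 50 CPM in the highest of them, the leading 10 included the nuclear RNAs Malat1, Neat1 and Kcnq1ot1. Malat1 was at 1656 to 3854 plain CPM in the DCS cells of 4 mice, against 11739 to 22066 in secretory progenitors, 14204 to 22217 in stem progenitors and 21341 to 36880 in goblet cells of mice 4, 5 and 8. No DCS value reached the lowest of another type. Its log2 difference was -2.34 ± 0.25 (SE) against secretory progenitors (edgeR adjusted p = 1.34e-06), -2.48 ± 0.25 against stem progenitors (8.21e-09) and -4.10 ± 0.29 against goblet cells (1.26e-11). In mature B cells of the same mice Malat1 was at 24478 to 35638 CPM. Neat1, a nuclear RNA that builds paraspeckles, differed by -3.45 against secretory progenitors, -2.89 against stem progenitors and -4.77 against goblet cells. Kcnq1ot1, an imprinted antisense RNA, differed by -3.51, -2.71 and -2.84 from the same types. Meg3, another imprinted nuclear RNA, had UMIs in the DCS cells of mouse 8 only (40.5 CPM), against 1041, 374, 118 and 351 CPM in the secretory progenitors of mice 1, 4, 5 and 8. This set of nuclear RNAs was chosen after its values were seen.

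The remaining leading genes of that kind were Gm26532, Gm26917, Ankrd10, Leng8, Eppk1, an epithelial plakin, Ptk2b, a calcium-activated tyrosine kinase, and Plce1, a phospholipase C. Ptk2b had no UMI in DCS cells, which was at least 3.82-fold lower than secretory progenitors, 8.26-fold lower than stem progenitors and 17.6-fold lower than goblet cells (taking 3 counts over the group as the floor). Without mouse 8, which holds most DCS UMIs, these bounds were 1.01-, 2.01- and 3.52-fold. Plce1 rested on 1 or 2 DCS UMIs and was 10.9-fold (95% counting interval 2.95 to 91.5) lower than in secretory progenitors, 40.4-fold (11.2 to 334) lower than in stem progenitors and 20.9-fold (3.45 to 857) lower than in goblet cells. Without mouse 8 it was 5.34-fold, 17.1-fold and at least 1.32-fold lower than in these types.

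Genes called higher in DCS cells against secretory progenitors were short, with a median genomic span of 7.85 kb, against 52.1 kb for those called lower and 24.5 kb for all genes tested. Their longest transcripts had medians of 1575 and 5571.5 nucleotides, and 3384.5 over all genes. The spans were 11.8 kb for genes called higher and 40.5 kb for genes called lower against stem progenitors, and 11.8 and 38.4 kb against goblet cells. The counts per gene are from a 3′ tag assay and were not divided by length.

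All 80 tested cytosolic ribosomal protein genes, a set chosen after values were seen, were above 0 on the log2 scale in the goblet comparison, and all 80 were called. They took 14.4, 23.0, 22.0 and 14% of UMIs in the DCS cells of WT mice 1, 4, 5 and 8 (18.3% ± 4.78, SD, n = 4). Secretory progenitors gave 13.1% ± 3.27, stem progenitors 12.1% ± 2.97 (n = 4 each) and goblet cells 3.22% ± 0.413 (n = 3). Against secretory progenitors 49 of 80 were called higher and 0 lower (median log2 0.54), and against stem progenitors 71 higher and 0 lower (0.74). The 13 mitochondrial genes were all called lower, with medians of -1.18 against secretory progenitors, -1.64 against stem progenitors and -2.31 against goblet cells. Both results depended on the cells summed. With the DCS cells of at least 5% mitochondrial UMIs, 77 of 80 ribosomal genes were below 0 against secretory progenitors (median -0.39, beside -0.62 for all genes there, with 0 called higher and 1 lower), 64 of 80 were below 0 against stem progenitors (median -0.17, beside -0.69), and 70 were still called higher than in goblet cells. No mitochondrial gene was called against secretory progenitors in those cells, which were chosen by their mitochondrial share.

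**Figure D3:**
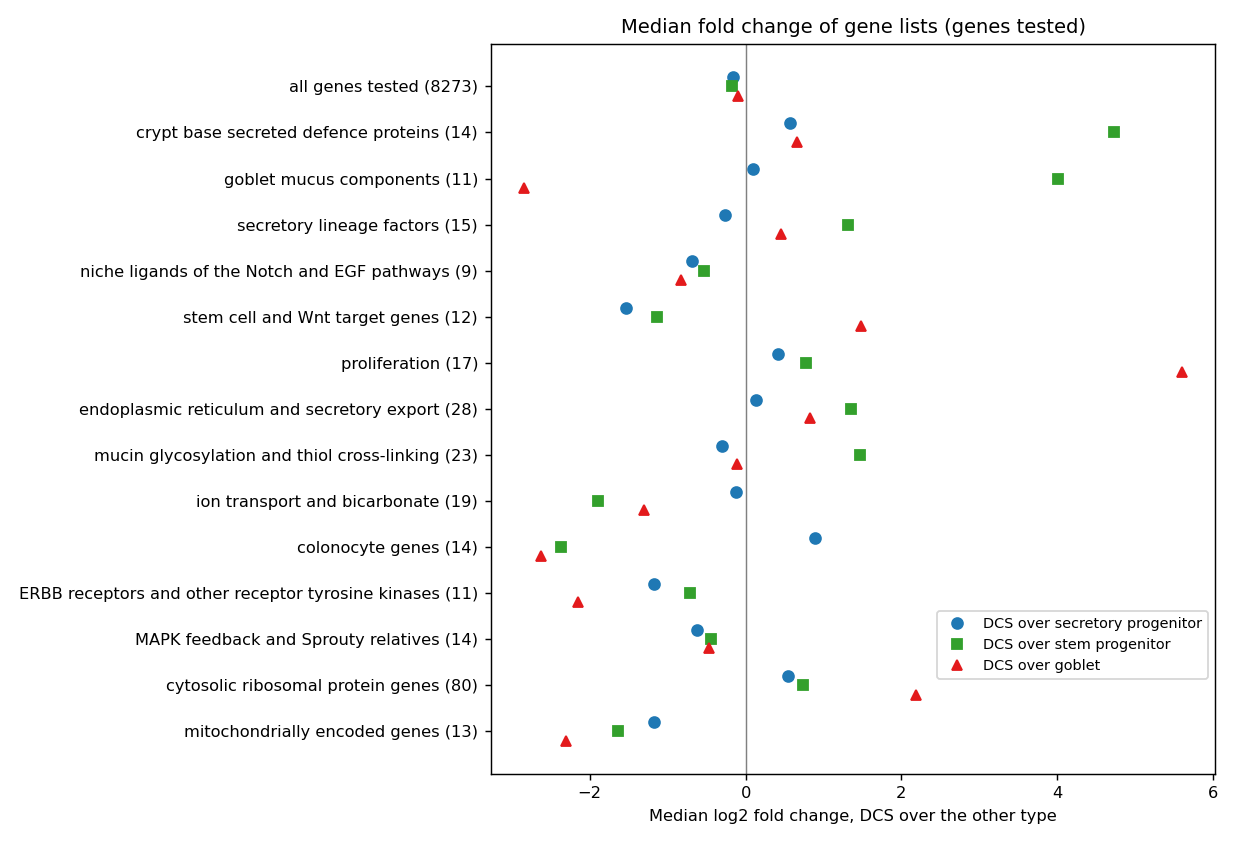
Median log2 fold change of DCS cells over secretory progenitors, stem progenitors and goblet cells (horizontal axis) for 14 gene lists and all genes tested (rows, with the number tested). Medians are of fitted values, so that proliferation genes over goblet cells lie at 5.61, or at 4.43 with genes at 0 set to the floor. Mucus components lie at -2.85 over goblet cells and 4.01 over stem progenitors, while the secreted defence proteins, a list that holds the DCS markers, lie above 0 in all 3 comparisons.

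Atoh1, Spdef and Creb3l4 were not called between DCS cells and secretory progenitors, while Sox4 and Sox9 were lower and Foxa3 higher in DCS cells. Atoh1, which commits cells to the lineage, averaged 161 CPM in DCS cells, 152 in secretory progenitors, 9.17 in stem progenitors and 258 in goblet cells. Its log2 difference from secretory progenitors was -0.00 ± 0.36 (SE; edgeR adjusted p = 0.996), and 4.29 ± 0.42 from stem progenitors. Spdef, which drives maturation of secretory cells, and Creb3l4, a membrane-bound factor of the endoplasmic reticulum, followed the same pattern, at 0.21 and 0.26 against secretory progenitors and 4.55 and 4.84 against stem progenitors. Creb3l4 was higher than in goblet cells (3.21 ± 0.55, SE), at 104 and 12.4 CPM.

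Of 15 tested lineage factors, 1 was called higher and 3 lower against secretory progenitors (median -0.27), 9 higher and 4 lower against stem progenitors (1.32), and 4 higher and 2 lower against goblet cells (0.46). The shares over all genes were 7.49% higher and 8.91% lower, 16.8 and 22.5%, and 20.3 and 24.1%, in that order. Foxa3, a forkhead factor of goblet cell genes, was the one called higher than in secretory progenitors (0.75 ± 0.24, SE; edgeR adjusted p = 0.0288), in all 4 mice. Sox9, a factor of crypt base and Paneth cells, was called lower than in both progenitor types (-0.93 and -0.73) and higher than in goblet cells (1.92 ± 0.45). Sox4, a factor of early secretory precursors, was called lower than in secretory progenitors (-2.58 ± 0.64) and stem progenitors (-2.96 ± 0.61). Klf4, a factor of goblet cell differentiation, averaged 657 CPM in DCS cells, 790 in secretory progenitors, 1211 in stem progenitors and 2457 in goblet cells, and was called lower against stem progenitors and goblet cells (-0.88 and -1.83).

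Among the signals that DCS cells are known to give stem cells, Dll1 was lower than in secretory progenitors and Egf was not called. Dll1, a Notch ligand, stood at 0, 20.6, 0 and 4.68 CPM in the DCS cells of WT mice 1, 4, 5 and 8, against 31.5, 50.2, 30.1 and 21.1 CPM in secretory progenitors. It was lower in every mouse, by a log2 of -2.17 ± 0.58 (SE; edgeR adjusted p = 0.0125). Egf had UMIs in the DCS cells of mouse 8 only, at 6.24 CPM, against 24.5, 13, 13.7 and 8.13 CPM in secretory progenitors, and was not called (-1.43 ± 0.80). In single libraries these zeros say little, since 3 counts were worth 32.9 to 40.7 plain CPM in the DCS sums of mice 1, 4 and 5. Of the 16 listed ligands of the Notch and EGF pathways 9 were tested, of which 0 were called higher and 2 lower against secretory progenitors, 1 higher and 3 lower against stem progenitors, and 1 higher and 2 lower against goblet cells. For all genes these shares were 7.49% higher and 8.91% lower, 16.8 and 22.5%, and 20.3 and 24.1%. The ligand called higher than in stem progenitors was the Notch ligand Dll4 (2.77). Hbegf, a membrane-bound ligand of the EGF receptor, was lower against all 3 types, at 43.7 CPM in DCS cells, 164 in secretory progenitors, 597 in stem progenitors and 265 in goblet cells. Hes1, the best-known Notch target, was called lower against stem progenitors (-1.20) and goblet cells (-1.28).

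Kit, a receptor tyrosine kinase used to sort DCS cells, stood at 13.5, 0, 10.4 and 56.1 CPM in the DCS cells of WT mice 1, 4, 5 and 8, against 179, 81.0, 92.3 and 134 CPM in secretory progenitors. The groups did not overlap, and the log2 difference was -1.63 ± 0.40 (SE; edgeR adjusted p = 0.00705). Against goblet cells Kit was not called (0.16 ± 0.58), and against stem progenitors it was called higher (2.46 ± 0.49) while higher in 2 of 4 mice. Cd24a, a surface glycoprotein also used for sorting, averaged 437 CPM in DCS cells, 382 in secretory progenitors, 122 in stem progenitors and 132 in goblet cells, and was called higher than in the last 2 (1.90 and 1.88). Of the 9 tested genes reported as DCS surface proteins or regulators, 0 were called higher and 1 lower against secretory progenitors, 5 higher and 1 lower against stem progenitors, and 5 higher and 0 lower against goblet cells. All genes together gave 7.49% higher and 8.91% lower, 16.8 and 22.5%, and 20.3 and 24.1% in these comparisons.

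Of 12 tested stem cell and Wnt target genes, 7 were called lower and 0 higher against secretory progenitors (median log2 -1.53), 5 lower and 0 higher against stem progenitors (-1.14), and 2 lower and 3 higher against goblet cells (1.10 with genes at 0 set to the floor). Axin2, a feedback inhibitor and target of Wnt signalling, rested on 3 UMIs in DCS cells and was 7.15-fold (95% counting interval 2.38 to 35.2) lower than in secretory progenitors and 6.33-fold (2.15 to 30.8) lower than in stem progenitors. All 3 UMIs came from mouse 8, without which the bounds were 1.65- and 1.71-fold. Ephb2 and Ephb3, receptors that hold cells at the crypt base, were called lower than in secretory progenitors (-1.51 and -1.65), as were the Myc-responsive Cdca7 (-1.90) and Clca3b (-1.49). Slc12a2, the chloride importer of crypt cells, averaged 157 CPM in DCS cells, 533 in secretory progenitors, 167 in stem progenitors and 51.3 in goblet cells.

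Cell cycle transcripts in the DCS cells came mainly from WT mouse 8. Ube2c, a ubiquitin-conjugating enzyme of mitosis, stood at 13.5, 0, 156 and 458 CPM in WT mice 1, 4, 5 and 8, Mki67, the Ki-67 antigen, at 13.5, 10.3, 10.4 and 187 CPM, and Cdk1, the mitotic kinase, at 13.5, 0, 72.9 and 106 CPM. Of 17 tested proliferation genes, 3 were called higher and 0 lower against secretory progenitors (median 0.41), 8 higher and 0 lower against stem progenitors (0.77), and 14 higher and 0 lower against goblet cells (4.43 with genes at 0 set to the floor). Without mouse 8, with 15 tested, the counts were 0 higher and 3 lower against secretory progenitors (median -0.65), 0 higher and 3 lower against stem progenitors (-0.10), and 9 higher and 0 lower against goblet cells, while the median of all genes was -0.35, -0.37 and -0.37 against these types. The log2 difference of Ube2c from secretory progenitors was 1.38 ± 0.42 (SE; higher in 2 of 4 mice) over all mice and -0.21 without mouse 8. In goblet cells Mki67 had no UMI, which puts DCS cells at least 52.4-fold higher, and Birc5, a mitotic survivin, was 128-fold (95% counting interval 34.9 to 1062) higher in DCS cells. Without mouse 8 the values were at least 4.04-fold for Mki67, on 2 DCS UMIs, and 27.3-fold for Birc5, and without mouse 5 they were at least 16.5-fold and 78.6-fold.

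Genes of the endoplasmic reticulum and of protein export were higher than in stem progenitors and goblet cells. Of 28 tested, 24 were called higher and 0 lower against stem progenitors (median log2 1.35), 15 higher and 1 lower against goblet cells (0.82), and 7 higher and 2 lower against secretory progenitors (0.14). Sec61b, a subunit of the translocation channel, averaged 1517 CPM in DCS cells, 745 in secretory progenitors, 357 in stem progenitors and 295 in goblet cells. It was higher than in secretory progenitors in all 4 mice (1.04 ± 0.19, SE). The other genes called higher than in secretory progenitors were Ssr4 and Sec11c (0.81 and 0.84), which serve translocation and signal peptide removal, Spcs1 (0.64), of the same peptidase, Manf (0.70), a secreted stress-response factor, Tmed3 (0.66), a cargo receptor, and Copz2. Hspa5, the main chaperone of the endoplasmic reticulum, and Ern2, the stress sensor of mucus-secreting cells, were the 2 called lower (-0.80 and -1.50). With the DCS cells of at least 5% mitochondrial UMIs the counts against secretory progenitors were 0 higher and 1 lower, and without mouse 8 they were 4 higher and 7 lower (median -0.44, beside -0.35 for all genes).

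The list of mucin glycosylation and cross-linking, which also holds genes of other functions such as Bace2, gave 15 called higher and 0 lower of 23 against stem progenitors (median log2 1.47), 8 higher and 6 lower against goblet cells (-0.11), and 0 higher and 3 lower against secretory progenitors (-0.30). Bace2, a membrane protease, and Galnt12, which starts O-glycan chains, differed by 4.16 and 2.67 from stem progenitors. Qsox1, a sulfhydryl oxidase that cross-links secreted proteins, was called higher than in stem progenitors (2.68) and lower than in secretory progenitors and goblet cells (-0.84 and -1.90). Galnt7 and the fucosyltransferase Fut8 were also called lower than in both of those types, at -1.31 and -0.83 against secretory progenitors and -1.45 and -1.15 against goblet cells.

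Transcripts of absorptive colonocytes were lower in DCS cells than in stem progenitors and goblet cells, and 6 of 14 tested were called higher than in secretory progenitors, with 1 lower (median log2 0.88). Against stem progenitors 13 were called lower and 1 higher (-2.37), and against goblet cells 11 lower and 1 higher (-2.63). Slc26a3, the chloride and bicarbonate exchanger of the colon surface, averaged 38.5 CPM in DCS cells, 8.66 in secretory progenitors, 457 in stem progenitors and 344 in goblet cells. Car4, a membrane carbonic anhydrase, averaged 92.5 CPM in DCS cells, 19.9 in secretory progenitors, 239 in stem progenitors and 210 in goblet cells, and the water channel Aqp8 was called higher than in secretory progenitors as well (2.48). The colonocyte list summed to 2182 to 3921 CPM in the DCS cells of 4 mice, against 2349 to 3028 in secretory progenitors, 8845 to 18768 in stem progenitors and 13652 to 14855 in goblet cells of mice 4, 5 and 8. Of 19 ion transport genes 4 were called higher and 3 lower against secretory progenitors, 2 higher and 12 lower against stem progenitors, and 6 higher and 10 lower against goblet cells, with Cftr, the chloride channel of crypt fluid secretion, lower than in stem progenitors (-3.00). Among all genes the shares were 7.49% higher and 8.91% lower, 16.8 and 22.5%, and 20.3 and 24.1%, respectively.

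Receptor tyrosine kinases were lower than in the other secretory cells. Of 11 tested, 6 were called lower and 0 higher against secretory progenitors (median log2 -1.17), 6 lower and 0 higher against goblet cells (-2.16), and 4 lower and 1 higher against stem progenitors (-0.72). Erbb3, a co-receptor of the EGF receptor family, averaged 17.1 CPM in DCS cells, 63.2 in secretory progenitors, 107 in stem progenitors and 115 in goblet cells, and was called lower against each. The insulin receptor Insr was called lower as well, by -1.17 against secretory progenitors, -1.69 against stem progenitors and -2.16 against goblet cells. Errfi1, a feedback inhibitor of EGF receptors, differed by -1.44, -1.96 and -2.71 from the same types. Of 14 genes of MAPK feedback and of the Sprouty family, 0 were called higher and 2 lower against secretory progenitors, 1 higher and 3 lower against stem progenitors, and 3 higher and 3 lower against goblet cells. Over all genes the shares were 7.49% higher and 8.91% lower, 16.8 and 22.5%, and 20.3 and 24.1%, in the same order. Spry2, the gene targeted in the study and an inhibitor of receptor tyrosine kinase signalling, was not called against secretory progenitors (-0.19), stem progenitors (0.02) or goblet cells (-0.59).

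The largest rises with the same direction in every mouse were Retnlb, Pnliprp2 (6.37 ± 0.44, SE), a lipase of the pancreatic family, Mptx1, Ang4, the retinol carrier Rbp4 (5.66 ± 0.46) and the tryptase Tpsg1 (5.43 ± 0.39) against stem progenitors. Tpsg1 averaged 301 CPM in DCS cells, 155 in secretory progenitors, 8.43 in stem progenitors and 255 in goblet cells. Against goblet cells the leading genes beside Reg4 and Mki67 had no UMI in goblet cells, and DCS cells were at least 99.7-fold higher for Cldn15, a pore-forming claudin, 44.3-fold for the metallothionein Mt3, 42.1-fold for the peroxiredoxin Prdx4 and 31.4-fold for Cdo1, a cysteine dioxygenase. The largest falls against goblet cells had no UMI in DCS cells, at least 44.7-fold lower for Bglap3, 36.7-fold for the villin-like Vill and 30.5-fold for Rsad2, an interferon-induced antiviral enzyme, with Rab3b, Ptk2b and Ly6g6c at 16.3-fold or more. Against stem progenitors, Trpm6, a magnesium channel, was at least 26.5-fold lower, and Slc9a2, a sodium/proton exchanger, was 104-fold (95% counting interval 18.7 to 4119) lower on 1 DCS UMI. Ly6g, Edn1, Mep1a and Ces2e were 66.2- to 89.9-fold lower, on 1 or 2 DCS UMIs each. These bounds and ratios depend on the depth of single mice. Without mouse 8 the rises over goblet cells were at least 24.3- to 54.6-fold for Cldn15, Mt3, Prdx4 and Cdo1, and the falls at least 3.24- to 7.86-fold. Without mouse 5 those rises were at least 7.91- to 29.2-fold and the falls at least 6.52- to 35.0-fold. Without mouse 8 Slc9a2 and Trpm6 were at least 6.49- and 5.36-fold lower than in stem progenitors, and Ly6g, Edn1, Mep1a and Ces2e 4.98- to 18.8-fold.

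Transcripts of antibody-secreting cells led the rises against secretory progenitors. Igkc, an immunoglobulin light chain, stood at 647, 812, 1488 and 39.0 CPM in the DCS cells of WT mice 1, 4, 5 and 8, against 112, 154, 162 and 22.2 CPM in secretory progenitors (log2 2.53 ± 0.58, SE). Iglc1, Jchain and Igha differed by 2.62, 2.52 and 2.14. Of 5 tested B and plasma cell genes 3 were called higher against secretory progenitors and 3 against stem progenitors, and 0 against goblet cells. The list summed to 99.4 to 2829 plain CPM in DCS cells, 64.7 to 399 in secretory progenitors, 184 to 1314 in stem progenitors and 85.0 to 806 in goblet cells. The lists of T, myeloid and fibroblast genes summed to at most 27.1, 67.9 and 92.8 CPM in any DCS sum, that of tuft cells to at most 163 CPM, and that of enteroendocrine cells to 11.0 to 384 CPM. The part of such transcripts in the differences was not tested.

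The DCS sums rest on 262 cells in mouse 8 and 55 to 63 in the others, and on cells that mostly lack mitochondrial transcripts. Deep cells weigh more in a sum, and the deepest DCS cell of mouse 8 held 53407 UMIs, beside a median of 1402. The deepest in the other mice held 4913 to 7197. In mouse 8 the DCS cells held 784700 UMIs, 2044 of them Malat1, while the 256 cells of cluster 18 held 666727 and 1099. What single deep cells contribute was not tested. With the 10 to 17 DCS cells per mouse that held at least 5% mitochondrial UMIs, 21 genes were called higher and 210 lower against secretory progenitors, 207 and 883 against stem progenitors, and 375 and 1283 against goblet cells. Fewer cells enter those sums. Of the defence list, 3 were then called higher and 2 lower against secretory progenitors, 8 and 4 against stem progenitors, and 5 and 3 against goblet cells. In these cells Mptx1 was at 38111 to 128225, Retnlb at 809 to 20207, Ang4 at 809 to 9301 and Reg4 at 1132 to 11171 plain CPM over the 4 mice. In the DCS cells under 1% mitochondrial UMIs, Mptx1 was at 24296 to 150448, Retnlb at 1216 to 21658 and Reg4 at 2374 to 7269 CPM. Mouse by mouse, Retnlb was lower in the cells with at least 5% in all 4 mice (4221, 809, 3056 and 20207 CPM, against 12935, 1216, 12097 and 21658 CPM in the cells under 1%). Spink4 was lower in all 4 as well (13536, 11751, 30417 and 16689 CPM, against 34944, 31191, 38976 and 37087 CPM). Clca1, a secreted mucus protein, was higher in all 4 (29800, 7385, 6958 and 30506 CPM, against 11174, 1349, 491 and 17614 CPM). Malat1 was at 1457 to 7347 CPM in the first set and 254 to 2925 CPM in the second, both below every secretory progenitor sum.

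**Figure D4:**
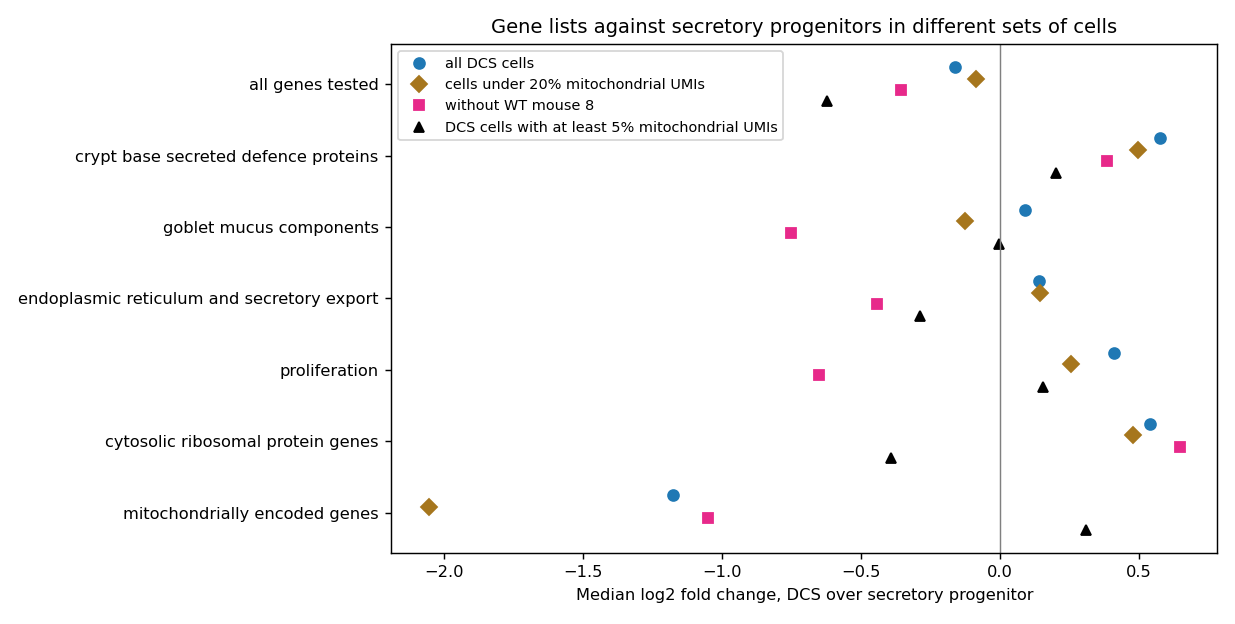
Median log2 fold change of DCS cells over secretory progenitors (horizontal axis) for gene lists (rows), with 4 choices of the cells or mice summed (markers). The ribosomal protein genes lie at 0.54 in all 441 cells and at -0.39 with the DCS cells of at least 5% mitochondrial UMIs, where the median of all genes is -0.62.

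The effect of the Spry2 genotype could be followed only in cluster 18, because the authors named DCS cells in WT mice alone. The cluster held 18, 136, 58 and 46 cells in KO-labelled mice 2, 3, 6 and 7, against 59, 62, 53 and 256 cells in WT-labelled mice 1, 4, 5 and 8. Spry2 itself had 0, 0, 0 and 12 UMIs in KO-labelled mice and 0, 5, 4 and 18 in WT-labelled mice (exact permutation test of the CPM over mice, two-sided p = 1). KO-labelled mouse 7 had the highest level of all 8 mice, at 236 plain CPM. Over all epithelial cells Spry2 was at 10.4, 13.3, 15.7 and 49.3 CPM in KO-labelled mice 2, 3, 6 and 7, against 11.2, 17.6, 27.7 and 37.6 CPM in WT-labelled mice 1, 4, 5 and 8 (exact permutation two-sided p = 0.857). The targeted gene thus did not separate the labels in the cluster or in the whole epithelium, and the labels could not be checked by it. The cluster made up 0.439, 3.59, 4.25 and 3.54% of the epithelial cells of KO-labelled mice (2.95% ± 1.71, SD, n = 4) and 1.58, 1.46, 1.98 and 9.90% in WT-labelled mice (3.73% ± 4.12), a difference of -0.777 percentage points (exact permutation two-sided p = 0.914). A cluster share can also move with the genes that define it.

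The secreted products were lower in KO-labelled mice without passing the tests. The defence list took 5.88, 10.9, 3.59 and 4.30% of UMIs in KO-labelled mice (6.17% ± 3.31, SD, n = 4), against 21.9, 6.59, 11.0 and 23.5% in WT-labelled mice (15.7% ± 8.24). The difference was -9.55 percentage points, with an exact permutation two-sided p of 0.0571, where the smallest that 4 against 4 mice allow is 0.0286. Mptx1 took 1.81, 4.71, 1.13 and 1.71% in KO-labelled mice and 15.2, 2.52, 5.14 and 15.6% in WT-labelled mice, where the exact permutation test gave p = 0.0571. WT-labelled mouse 4 lay within the KO-labelled range for both. The sex of the mice was not taken into account in these tests. Retnlb took 0.939, 0.988, 0 and 0.00785% in KO-labelled mice and 1.06, 0.0978, 1.03 and 2.17% in WT-labelled mice, where the exact permutation test gave p = 0.143.

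Across 1007 genes edgeR called 0 higher and 0 lower in KO-labelled mice, DESeq2 called 3 lower, and the unadjusted edgeR p was under 0.05 for 95 (9.43%). All KO-labelled values lay above all WT-labelled values for 21 genes (2.09%) and below them for 27 (2.68%). The smallest p belonged to Ceacam10, a secreted member of the carcinoembryonic antigen family, at 130, 133, 115 and 132 CPM in KO-labelled mice, against 451, 274, 365 and 725 CPM in WT-labelled mice (log2 -1.89 ± 0.35, SE; edgeR adjusted p = 0.207). Klk1, tissue kallikrein, followed at 1430, 2145, 1798 and 2006 CPM in KO-labelled mice, against 3705, 3094, 3486 and 5136 CPM in WT-labelled mice (-1.06 ± 0.22). Klf4 lay the other way, at 1430, 1357, 1583 and 1742 CPM in KO-labelled mice, against 976, 698, 934 and 1059 CPM in WT-labelled mice (0.73 ± 0.18; edgeR adjusted p = 0.244). The others of the 10 with the smallest p were Nov, Fdps, H2-D1, P2rx4 and Hgfac, lower, and Lgals3 and Nr4a1, higher, all uncalled.

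By list, 10 of 11 tested defence genes were below 0 in KO-labelled mice (median log2 -0.95), as were 6 of 7 mucus genes (-0.95), 17 of 18 genes of the endoplasmic reticulum and export (-0.58), 8 of 9 genes of the mucin glycosylation and cross-linking list (-0.49) and 13 of 78 ribosomal genes (0.20). Of all 1007 genes 483 were below 0, with a median of 0.02. Without WT-labelled mouse 8 the export list's median was -0.27. The fitted differences of Mptx1, Spink4, Ang4, Reg4 and Clca1 were -2.32, -0.73, -1.62, -1.39 and -2.61 and none was called. Fewer transcripts per cell and a changed mix of cells within the cluster cannot be told apart in such sums.

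**Figure D5:**
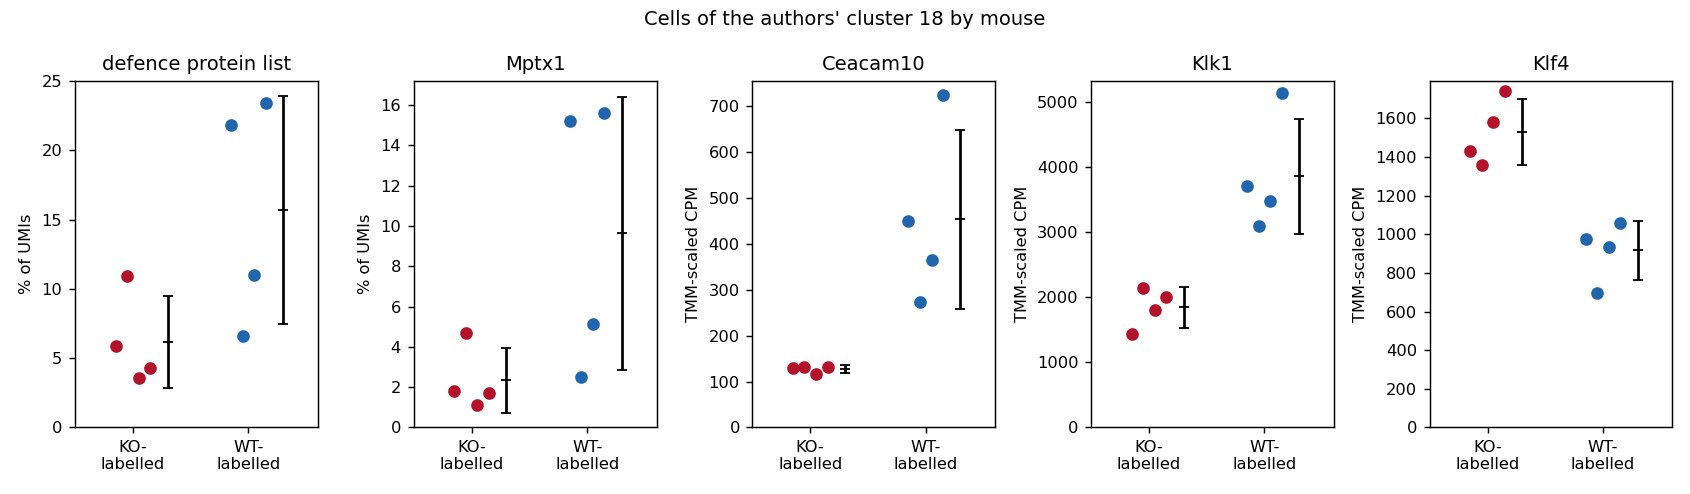
Share of UMIs of the secreted defence list and of Mptx1 (percent), and CPM of Ceacam10, Klk1 and Klf4, in cluster 18 of 4 KO-labelled and 4 WT-labelled mice; points are mice and bars the mean ± SD. The KO-labelled values of Ceacam10 lie between 115 and 133 CPM and the WT-labelled values between 274 and 725 CPM, and edgeR called no gene at an adjusted p under 0.05, while DESeq2 called 3 lower.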

How the data were processed

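Distal colonic cells of 8 mice, separate animals handled on 1 day as 1 batch, were profiled by 10x 3′ single-cell RNA-seq. The authors deposited raw UMI counts per gene and cell, made with Cell Ranger 3.0.2 and mm10, per the submitters' processing notes, together with a cell table holding their clusters and names. The tools behind the clusters and names are not stated in the labels. Cells had at least 500 UMIs, and cells named as doublets by the authors were left out of every type. The cell table was tied to the matrix by mouse and barcode, after which all 53080 deposited size factors equalled the matrix totals (tolerance 1e-06, as ratios). The deposited UMAP coordinates, scores the authors made with a tool that no label names, entered no comparison. Depth was 17.0 to 37.3 M UMIs per mouse.

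Deposited counts were summed per mouse and cell type (at least 10 cells) and tested with edgeR 4.0.16 in R 4.3.3: TMM scaling, filterByExpr, a quasi-likelihood test of type with the mouse as a block, and Benjamini-Hochberg adjustment at 0.05. The block is justified because the types of 1 mouse come from the same animal. The KO-labelled and WT-labelled mice were compared without a block, since mice of the groups share no number. Per-gene CPM values are on TMM-scaled sizes unless called plain. DESeq2 1.42.0, RLE scaling, no filter, other cell sets and left-out mice were the alternatives. The test was checked on simulated counts. Single values were compared with exact sign-flip or permutation tests in Python 3.11.15. Per-cell detection used cells thinned to 500 UMIs. Counting intervals cover counting error only, and all are 95% intervals.

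Genes were named by rule. These were up to 15 genes called higher than all 3 types, and up to 10 called lower, in the same direction in every mouse and with at least 50 CPM. To these were added the 6 largest rises and falls per comparison, members of the gene lists, and for KO-labelled against WT-labelled mice the 10 genes with the smallest p. The cells, gene lists and rules were chosen with earlier results of these data known. Promoters came from RefSeq, and positions from the GENCODE annotation of mm10.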

Additional observations from a re-analysis of the deposited data

Results flagged for a closer look

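Among groups of 4 mice, a value was listed here where its gap to the nearest other mouse passed Dixon's 95% limit for 4 values, which chance passes in about 1 of 20 groups. Many groups were looked at, so chance alone could list some. Values of DCS cells and of cluster 18 come from largely the same cells and are near repeats. WT mouse 8 stood apart in the share of DCS cells among all epithelial cells, at 10.1%, and in the share of cluster 18, at 9.90%. WT mouse 5 stood apart in the median mitochondrial share of its DCS cells, at 1.25%, and of its cluster 18 cells, also at 1.25%.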

How the results depend on the processing

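For 280 pairs of a gene and a comparison, 3058 values were computed with another scaling, filter, tool or cell limit, or with a mouse left out. Of these, 2808 kept direction and side of the threshold, 212 lost the call, 26 gained it and 12 reversed. Of 541 from settings chosen after seeing the data (no mitochondrial genes, or DCS cells of at least 5% mitochondrial UMIs), 434 kept both, 92 lost the call, 0 gained it and 15 reversed. Genes called higher and lower are given as pairs. Against goblet cells the counts were 375 and 1283 with DCS cells of at least 5% mitochondrial UMIs, 1088 and 1273 with equal cell numbers, 782 and 801 when only these 2 types were fitted, and 1273 lower under 20% mitochondrial UMIs. Against secretory progenitors they were 21 and 210 with at least 5%, 375 and 430 under 20%, and 280 higher with no filter. Without the replicate block of the mouse 385 were called higher. Against stem progenitors they were 207 and 883 with at least 5%, and 788 and 1092 with equal cell numbers. Leaving out each mouse gave 1037 to 1826 and 1127 to 1776 against goblet cells, 205 to 460 and 337 to 712 against secretory progenitors, and 719 to 1420 and 1288 to 1607 against stem progenitors. Counts moved most without mouse 5 (1100 and 1127) and mouse 8 (1037 higher) for goblet cells, without mouse 1 (417 lower), mouse 4 (205 and 337) and mouse 5 (363 and 449) for secretory progenitors, and without mouse 8 (719 higher) for stem progenitors. In KO-labelled against WT-labelled mice the counts were 3 and 25 with no filter, 3 lower with DESeq2, 10 lower under 20%, and 0 to 2 lower with a mouse left out. The DCS share of named cells was 17.2% under 20%, and the product share 5.80% without Mptx1. The product difference between labels ran from -12.6 to -6.97 percentage points with a mouse left out (exact permutation p = 0.0286 without WT mouse 4). The cluster share difference was 0.0611 without KO-labelled mouse 2, 1.28 without WT mouse 8, at lowest -1.53 without WT mouse 4, and 0.408 under 20%.

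With DCS cells of at least 5%, log2 values against secretory progenitors turned for Reg4 (-0.34), Spink4 (-0.24), Agr2 (-0.0021), Spdef (-0.67), Ccnb1 (-0.96), Sec61b (-0.32), Manf (-0.0049), Cmtm7 (-0.60), Vbp1 (-0.14), Dnlz (-0.15) and Rnf7 (-0.42). They turned against goblet cells for Cmtm7 (-0.32) and against stem progenitors for Ccnb1 (-0.28) and Rnf7 (-0.27). Without mouse 8 they turned against secretory progenitors for Reg4 (-0.048), Spdef (-0.079), Ube2c (-0.21) and Ccnb1 (-0.76), and against stem progenitors for Kit (-0.24), Ccnb1 (-0.10), Birc5 (-0.062) and Stmn1 (-0.25). With a mouse left out, the highest values were 0.22 for Reg4, 0.37 for Spdef, 1.79 for Ube2c and 1.65 for Ccnb1 against secretory progenitors, and 3.12 for Kit, 2.32 for Ccnb1, 2.08 for Birc5 and 0.72 for Stmn1 against stem progenitors, and the lowest for Atoh1 was -0.20. Ccnb1 against secretory progenitors was at -0.24 with equal cell numbers. Atoh1 against secretory progenitors, at 0 in the text, was 0.049 with DESeq2, 0.043 without mouse 4, 0.28 without mouse 8 and 0.027 without the mitochondrial genes. The causes were not tested. With DCS cells of at least 5% the median of all genes was -0.62 against secretory progenitors, -0.69 against stem progenitors and -0.70 against goblet cells, so values there are to be read against it. RLE scaling and DESeq2 moved the median of all genes by less than 0.1 and left every ribosomal median above 0. Depth limits low genes: 3 counts over the DCS sums of mice 4, 5 and 8 are worth 3.12 CPM, and genes near that level cannot be told from 0.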
